A study of Mus musculus with 4 samples.

Results

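The cells described here are proximal tubule cells of the S1 and S2 segments, the first and middle stretches of the proximal tubule, in the kidneys of male C57BL/6 mice aged 19 months. They were chosen from single-cell RNA libraries by their own transcripts, counted as unique molecular identifiers (UMIs), of which 1 stands for 1 captured RNA molecule. Barcodes entered with 500 or more UMIs, 300 or more genes seen, and no more than 50% of UMIs from mitochondrially encoded genes. A barcode counted as S1-S2 with at least 3 UMIs of Lrp2 and Slc34a1 together, at least 5 UMIs of Slc5a2 and Slc5a12 together and more of these than of Slc7a13. It could hold at most 1 UMI of the injury genes Vcam1 and Havcr1, and none of the leukocyte gene Ptprc or of the endothelial genes Pecam1 and Cdh5. This rule found 12850 S1-S2 cells among 50605 kept barcodes.

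The mice had received BPTES or the vehicle DMSO for 1 month, and each group comprised 2 libraries. BPTES is a small molecule that inhibits the breakdown of glutamine by acting on an enzyme's activity and not on its transcript. Kidneys were dissociated with liberase, and each library combined 20000 CD45-negative with 9000 CD45-positive cells, a proportion set by sorting. Nothing in the labels says whether the 2 libraries of a group came from separate animals, so the p-values measure the spread between these libraries, which may be technical. The comparison asks which transcripts of S1-S2 cells differ between old mice given this inhibitor and old mice given the vehicle.

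S1 and S2 cells take up most of what the glomerulus filters. Apical carriers driven by the sodium gradient bring in glucose, amino acids and phosphate, the receptors megalin and cubilin bring in filtered proteins, and basolateral carriers pass amino acids and glucose on to the blood. The same cells burn fatty acids and glutamine for energy, and the breakdown of glutamine releases the ammonia that the kidney uses to excrete acid. After damage, proximal tubule cells lower their transporters and turn on injury genes such as Havcr1, Vcam1, Lcn2, Sox9, complement C3 and fibrinogen.

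The BPTES libraries held 3543 and 3685 S1-S2 cells, with 79377713 and 76084887 UMIs in all, and the DMSO libraries held 3089 and 2533, with 68252484 and 56683695 UMIs. The median S1-S2 cell had 18795 and 16615 UMIs with BPTES against 19638 and 18980 with DMSO. The median mitochondrial share was 20.7% and 23.1% against 14.2% and 19.1%. For both measures the groups did not overlap. The exact two-sided permutation test of the median UMIs gave p = 0.333, the smallest value that 2 libraries against 2 allow. The mitochondrial share is limited by the rule and is given as a description only. Of the 12836 different S1-S2 barcodes, 14 occurred in more than 1 library. As a check for libraries with like counts, the chi-square per degree of freedom over genes was 34.2 between the BPTES libraries and 30.6 between the DMSO libraries.

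The named genes of the rule describe the cells, and no test of them is given. Slc5a2, the glucose carrier SGLT2 of the early tubule, stood at 894 and 990 counts per 1e6 UMIs (CPM) with BPTES and at 587 and 740 CPM with DMSO. Slc5a12, a lactate carrier, stood at 1876, 1844, 2142 and 1767 CPM in the same order of libraries. Over the 4 libraries together, Slc5a2 was at 797 CPM in S1-S2 cells and at 30.8 CPM in S3 cells, the last proximal stretch, chosen by Slc7a13 in the same way (2736 cells). Both choices use the UMIs of Slc5a2, so this contrast was set in advance. Among markers that the rule did not use, the basolateral glucose carrier Slc2a2 was at 367 CPM in S1-S2 cells against 94.97 in S3 and 2.99 in thick ascending limb cells. The apical neutral amino acid carrier Slc6a19 was at 277 CPM against 22.3 and 2.59. The label therefore fits these markers outside the rule, although the rule sets a range along the tubule and not a sharp border. Exactly 5 UMIs of Slc5a2 and Slc5a12 were held by 117, 146, 149 and 132 members, and 138, 151, 146 and 130 barcodes were left out at 4.

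S1-S2 cells made up 27.0% and 31.5% of kept barcodes with BPTES and 23.5% and 19.99% with DMSO. The means were 29.3% ± 3.20 (SD, n = 2) and 21.8% ± 2.50 (SD, n = 2), a difference of 7.52 percentage points. The rule itself sets these shares, so they are given as a description only. Among barcodes without a Ptprc UMI the shares were 46.5% and 55.5% against 42.2% and 33.9%. Exact (Clopper-Pearson) 95% intervals of the single shares, which cover counting error only, ran from 45.3% to 47.6% and from 54.3% to 56.7% with BPTES, and from 41.1% to 43.4% and from 32.9% to 35.0% with DMSO. After each barcode was thinned to 2000 UMIs, the difference in the share of kept barcodes was 3.79 points, and at a mitochondrial limit of 25% it was 4.05 points. The CD45 sort, loading and the limits of the rule bear on these shares, and their part was not tested. Slc5a2 and Slc5a12 together, on which the rule rests, had a median of 24 and 22 UMIs per S1-S2 cell with BPTES. With DMSO it was 20 and 20.

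The limit on Vcam1 and Havcr1 removed unequal numbers of cells. It left out 13 and 11 cells (0.366% and 0.298% of those that otherwise met the rule) with BPTES and 59 and 98 cells (1.87% and 3.72%) with DMSO. These values come from the rule and are given as a description only. What follows thus describes S1-S2 cells with at most 1 UMI of these injury transcripts. When this limit, called the injury limit below, was dropped, 19 of the 48 named calls were lost. Each of the 19 kept its direction.

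Between BPTES and DMSO, edgeR's quasi-likelihood test on UMI counts summed per library called 154 of 15574 tested genes at an adjusted p under 0.05, which is 0.989% of those tested. Of these, 67 rose with BPTES (0.43%) and 87 fell (0.559%). Without adjustment 3674 genes had a p under 0.05 (23.6%), and for 8962 genes (57.5%) the 2 BPTES values did not overlap the 2 DMSO values. The median log2 fold change of all tested genes was -0.02. DESeq2, run as an alternative, gave 12252 genes an adjusted p and called 1065 of them (8.69%), 670 rises (5.47%) and 395 falls (3.22%). Among the fits that left out 1 library, the number of edgeR calls was lowest without BPTES replicate 2, and most of those calls were not among the 154. Log2 fold changes without it were 1.03 for Slc16a10, 0.78 for Slc7a8 and -3.07 for C3, against 1.14, 0.81 and -2.84 with all libraries. Without BPTES replicate 1 the count was 216, of which 85 were shared. Without DMSO replicate 1 it was 739 and without DMSO replicate 2 it was 1042, and each of these included all 154.

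**Figure D1:**
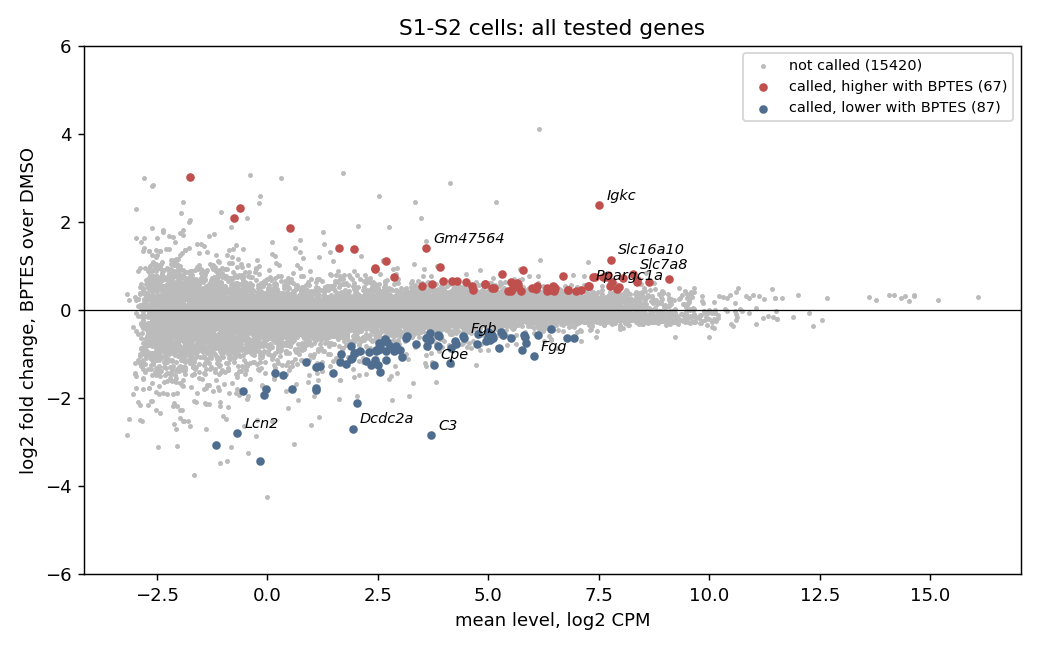
Log2 fold change of BPTES over DMSO (vertical axis) against the mean level in log2 CPM (horizontal axis) for all genes tested in S1-S2 cells, 1 point a gene, with 1 gene outside the drawn range. The 67 called rises lie mostly at higher levels than the 87 called falls, and C3 and Igkc stand away from the genes of like level.

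Called genes were set against their levels in the other cell pools. Of the 67 that rose, 64 (95.5%) had a higher level in S1-S2 than in S3 cells, against 62.7% of all tested genes, and of the 87 that fell 41 (47.1%) had. Of the 87 that fell, 47 (54.0%), and of the 67 that rose, 5 (7.46%) were over 10 times higher in another cell pool of these libraries (S3, thick ascending limb, leukocyte or endothelial cells), against 17.8% of all tested genes. No test of these shares was run. The called rises were also long genes, with a median gene span of 77.1 kb against 14.6 kb for the called falls and 23.8 kb for all tested genes. Malat1, a nuclear RNA, was at 39270 and 40965 CPM with BPTES and 31328 and 37414 CPM with DMSO, and did not pass the test (log2 fold change 0.22 ± 0.14 (SE), adjusted p = 0.375). Of 2 further RNAs looked at as nuclear, Gm26917 was called as a rise, at 436 and 531 CPM against 304 and 317 (0.64 ± 0.11, adjusted p = 0.0458), and Neat1 was at 369 and 386 CPM against 342 and 474, with overlapping groups (-0.11 ± 0.15, adjusted p = 0.680). The part of nuclear RNA in the rises was not tested.

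In the list of amino acid carriers, 2 that export amino acids across the basolateral membrane to the blood rose. Slc16a10, which encodes the aromatic amino acid carrier TAT1, was at 279 and 325 CPM with BPTES and at 118 and 156 CPM with DMSO. Slc7a8, which encodes the neutral amino acid exchanger LAT2, was at 383 and 403 CPM against 214 and 233. For both genes each BPTES library lay above each DMSO library, and the log2 fold changes were 1.14 ± 0.15 (adjusted p = 0.0320) and 0.81 ± 0.08 (adjusted p = 0.0129). Slc3a2, the heavy chain that LAT2 pairs with, was at 254 and 286 CPM against 173 and 216, without passing the test (adjusted p = 0.0952). Slc6a19, the apical carrier of neutral amino acids, was at 299 and 324 CPM against 251 and 239 (adjusted p = 0.0809). Slc7a8 is also in a list of S1 markers, of which the 5 outside the rule lay above 0 (median log2 fold change 0.35). Of 5 S2 markers 4 lay above 0 (median 0.23), and the 6 S3 markers outside the rule lay below 0 (median -0.28). A shift of the chosen cells along the tubule was not tested.

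In the list of amino acid carriers 2 also fell. Slc6a18, an apical carrier of neutral amino acids that was at 181 CPM in S3 and at 14.7 CPM in S1-S2 cells, measured 10.7 and 10.4 CPM with BPTES and 17.4 and 19.8 CPM with DMSO (log2 fold change -0.81 ± 0.10, adjusted p = 0.0177). Slc1a4, which carries alanine, serine and cysteine, measured 1.32 and 1.38 CPM against 2.99 and 3.48 (-1.26 ± 0.18, adjusted p = 0.0314). Of the 20 amino acid carriers and partners tested, 2 were called as rises and 2 as falls, against 0.43% and 0.559% of all tested genes. A fold change above 0 was found for 15 of the 20, against 7416 of all 15574 tested genes, and the list's median was 0.16. Without adjustment 11 had a p under 0.05 (55% against 23.6% of all genes). DESeq2 called 5 rises and 2 falls, Slc3a2 and Slc6a19 among the rises. Over all genes it gave an adjusted p, its rises were 5.47% and its falls 3.22%. Without BPTES replicate 2 none of the 4 calls was kept, and the adjusted p was 0.226 for Slc16a10, 0.0845 for Slc7a8, 0.134 for Slc6a18 and 0.201 for Slc1a4. Slc16a10 (adjusted p = 0.0549) and Slc1a4 (0.0720) were also not called without BPTES replicate 1, while all 4 were called without either DMSO library. Without the injury limit Slc1a4 measured -1.42 and was not called (0.0505).

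**Figure D2:**
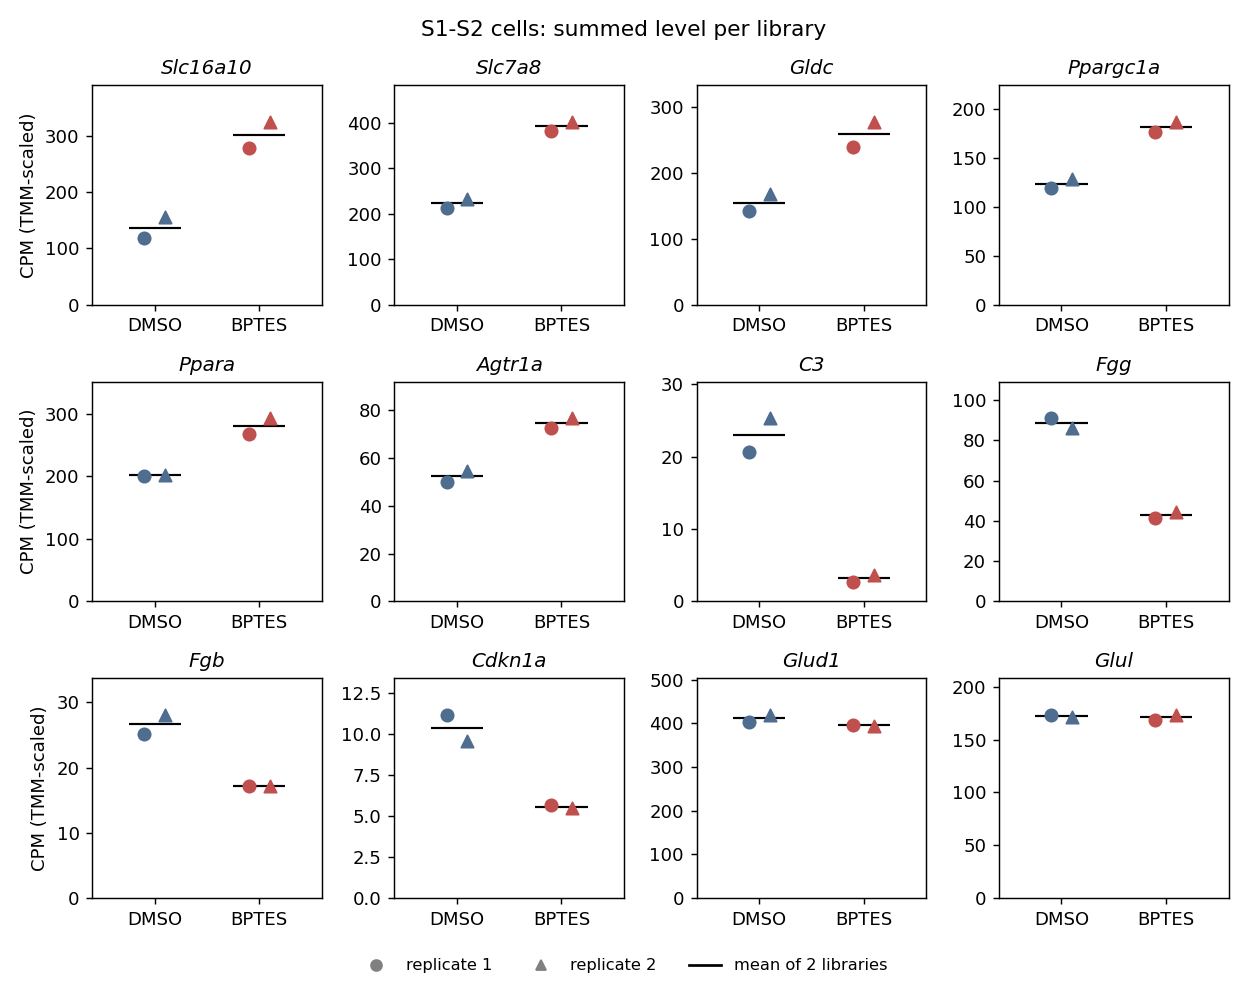
Level in S1-S2 cells of 12 genes in TMM-scaled CPM (vertical axes, from 0), with 1 point for each library, replicate 1 as a circle and replicate 2 as a triangle, and a line at the mean of the 2 libraries of a group. Glud1 and Glul lie at about the same height in both groups, while the 6 genes from Slc16a10 to Agtr1a are higher and the 4 genes from C3 to Cdkn1a are lower in both BPTES libraries.

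Among the genes of fatty acid oxidation and its control, 2 regulators rose. Ppargc1a encodes the coactivator PGC-1alpha, which drives mitochondrial genes, and it was at 177 and 187 CPM with BPTES and at 120 and 128 CPM with DMSO (log2 fold change 0.56 ± 0.08, adjusted p = 0.0282). Ppara, the nuclear receptor that controls fatty acid oxidation, was at 268 and 293 CPM against 201 and 202 (0.48 ± 0.08, adjusted p = 0.0458). The enzymes of fatty acid oxidation did not pass the test. Of 36 genes in that list, Ppara and Ppargc1a were the 2 calls, against 0.43% of all tested genes called as rises. A fold change below 0 was found for 27, and the median was -0.16. Before adjustment 5 rises and 10 falls had an edgeR p under 0.05 (41.7% against 23.6% of all tested genes). DESeq2 called 3 rises and 8 falls in the list, with Ehhadh, Fabp1 and Plin2 among the falls. Over all genes it gave an adjusted p, its rises were 5.47% and its falls 3.22%. Fabp1, a fatty acid binding protein, was at 4.28 and 2.99 CPM against 7.11 and 6.6. Plin2, which coats lipid droplets, was at 36.0 and 30.6 CPM against 45.6 and 45.2. Neither passed the edgeR test (adjusted p = 0.0576 and 0.0633). At the 25% mitochondrial limit both were called (0.0465 and 0.0461). With predicted doublets removed Fabp1 was called (0.0469) and Plin2 was not (0.0517). Ehhadh, an enzyme of peroxisomal oxidation, measured 65.3 and 51.4 CPM against 84.3 and 107. Without BPTES replicate 2 the adjusted p was 0.175 for Ppargc1a and 0.237 for Ppara, and without the injury limit Ppara measured 0.54 (adjusted p = 0.0649). Ppara was also not called under RLE scaling or after thinning to 2000 UMIs, with its fold change still above 0.

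Further called rises joined genes of several functions. Gldc, the glycine decarboxylase of mitochondria, was at 240 and 277 CPM with BPTES and at 142 and 167 CPM with DMSO (log2 fold change 0.74 ± 0.11). Adra1a, an adrenergic receptor, was at 230 and 257 CPM against 147 and 144 (0.74 ± 0.08), and Agtr1a, an angiotensin II receptor that acts on tubular sodium uptake, at 72.4 and 76.6 CPM against 49.9 and 54.7 (0.51 ± 0.08). Sgk2, a kinase that acts on ion transport, was at 126 and 135 CPM against 77.5 and 75.1 (0.78 ± 0.08).

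P3h2, a collagen prolyl hydroxylase, rose from 144 and 161 CPM to 245 and 288 CPM (0.80 ± 0.10). Slc22a28, an organic anion carrier, rose from 246 and 272 CPM to 396 and 412 CPM (0.64 ± 0.09). Cdh2, the adhesion molecule N-cadherin of the proximal tubule, rose from 28.7 and 28.3 CPM to 45.4 and 55.2 CPM (0.82 ± 0.10). The 12 largest called rises at a mean log2 CPM of at least 3 were ranked without genes far higher in another cell pool, such as Igkc. They held Slc16a10, Slc7a8, Gldc, Adra1a, Sgk2, P3h2 and Cdh2, but not Agtr1a or Slc22a28. The other genes among these 12 were Gm47564 (1.41 ± 0.12), Chrna7 (0.97 ± 0.11), S100g (0.92 ± 0.09), Unc5c (0.76 ± 0.12) and Galnt14 (0.75 ± 0.09). The adjusted p of these 12 ranged from 0.00825 for Gm47564 to 0.0397 for Unc5c. Gm47564 was still called without BPTES replicate 2 (adjusted p = 0.0277) and the others were not. Without the injury limit Unc5c measured 0.79 and was not called (adjusted p = 0.0566). S100g, which encodes a calcium-binding protein of the distal tubule, went the other way among S1-S2 cells with middle and high organic anion carrier level (-0.12 and -0.23), and its call was lost once predicted doublets were removed.

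The transcripts of glutamine and ammonia metabolism held no call. Of 23 genes tested in this list, 19 had a fold change below 0, and the median was -0.10, against -0.02 over all tested genes. Glul, the enzyme that makes glutamine, was at 169 and 173 CPM with BPTES and at 173 and 171 CPM with DMSO (log2 fold change -0.01 ± 0.07, adjusted p = 0.948). Glud1, which releases ammonia from glutamate, was at 396 and 394 CPM against 404 and 420 (-0.06 ± 0.08, adjusted p = 0.686). Pck1, the gluconeogenic enzyme that uses the carbon left from glutamine, was at 553 and 490 CPM against 438 and 535, with overlapping groups (0.10 ± 0.12, adjusted p = 0.634).

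Gls2, an enzyme of glutamine breakdown, was counted with 3 and 3 UMIs against 2 and 2 over all S1-S2 cells and was too low to test. Slc38a3, the basolateral glutamine carrier that rises in acidosis, was near the lower limit of counting at 0.229 and 0.181 CPM against 0.222 and 0.473. Of the 23 glutamine and ammonia genes tested, edgeR called 0 at an adjusted p under 0.05, and 4 (17.4%, against 23.6% of all tested genes) had an unadjusted p under 0.05, all of them lower with BPTES. DESeq2 also called 0. The 4 were Asns, Slc25a22, Psat1 and Slc7a11, at log2 fold changes of -0.97, -0.45, -0.21 and -0.95. Asns, asparagine synthetase, was called as a fall when DMSO replicate 1 was left out, and Asns and Slc25a22 were called as falls without the low-count filter.

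Several genes of the injured tubule fell. Of 31 such genes tested, 8 were called, all lower with BPTES, against 0.559% of all tested genes called as falls. A fold change below 0 was found for 28, and the median was -0.68, against -0.02 over all tested genes. Before adjustment 19 falls and 2 rises had an edgeR p under 0.05 (67.7% against 23.6% of all tested genes). The 8 were C3, Fgg, Fgb, Dcdc2a, Lcn2, Sox4, Myc and Lgals3. DESeq2 called 12 falls and 2 rises, the rises being Clu and Itgb6. Over all genes it gave an adjusted p, its falls were 3.22% and its rises 5.47%. C3, the central complement component, was at 2.73 and 3.71 CPM with BPTES and at 20.6 and 25.3 CPM with DMSO (log2 fold change -2.84 ± 0.17, adjusted p = 0.00664). Fgg, the gamma chain of fibrinogen, was at 41.2 and 44.2 CPM against 91.0 and 85.9 (-1.05 ± 0.08, adjusted p = 0.00664). Fgb, the beta chain, was at 17.1 and 17.2 CPM against 25.1 and 28.1 (-0.63 ± 0.09, adjusted p = 0.0274). For all 3 genes the libraries of the groups were well apart. Markers of the thick ascending limb were also lower in these cells with BPTES (34.4 and 44.5 CPM in sum against 75.6 and 81.0). In thick ascending limb cells of the 4 libraries a Dcdc2a UMI was found in 18.9%, 9.92%, 17.9% and 39.2%, against 1.64%, 1.25%, 4.31% and 7.94% of S1-S2 cells, in the order BPTES 1 and 2, DMSO 1 and 2. An Lcn2 UMI was found in 6.63%, 7.63%, 21.6% and 29.0% against 0.226%, 0.380%, 0.874% and 1.46%. The part of thick ascending limb RNA in these falls was not tested.

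These calls differed in how they stood up to the alternatives. Fgg was called under each of the 18 other settings tried, with log2 fold changes from -1.35 to -0.68. C3 was called with any 1 library left out, but not when the limit on Vcam1 and Havcr1 was dropped (-2.62, adjusted p = 0.104). Fgb was not called without BPTES replicate 1 (adjusted p = 0.0596) or without BPTES replicate 2 (0.178). Dcdc2a, a cilium gene that also marks damaged tubules, was at 1.18 and 0.890 CPM against 5.17 and 8.32 (-2.69 ± 0.28, adjusted p = 0.0177), and was not called without BPTES replicate 1 (0.0520), without BPTES replicate 2 (0.178) or without the injury limit (-3.07, 0.151). Lcn2, a secreted injury marker, was counted with 8 and 15 UMIs against 94 and 48. The S1-S2 cell with most Lcn2 held 1 and 2 of these UMIs with BPTES and 43 and 9 with DMSO. Lcn2 also lost its call without BPTES replicate 1 (-2.34), without BPTES replicate 2 (-3.38) and at the 25% mitochondrial limit (-2.5, adjusted p = 0.0857). It was not among the genes that DESeq2 called. Of the list's 8 calls, 2 were kept without BPTES replicate 1 and 2 without BPTES replicate 2, Fgg and C3 both times. Without the injury limit the 4 kept were Fgb, Fgg, Lcn2 and Myc. Because the member rule itself removed cells with Vcam1 or Havcr1, and more of them with DMSO, these levels are those of cells with at most 1 such UMI.

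C3, Fgb and Fgg also make up part of the acute-phase response of the liver, where C/EBP and STAT factors drive them, and their promoters are shown for that reason. The 200 bases before each gene's start were taken from RefSeq on GRCm38.p6, in the direction of transcription. Capitals mark matches on either strand to TTGCNNAA (C/EBP) or TTCNNNGAA (STAT), and the NF-kB consensus motif was searched as well.
C3, chr17:57228137-57228336, minus strand: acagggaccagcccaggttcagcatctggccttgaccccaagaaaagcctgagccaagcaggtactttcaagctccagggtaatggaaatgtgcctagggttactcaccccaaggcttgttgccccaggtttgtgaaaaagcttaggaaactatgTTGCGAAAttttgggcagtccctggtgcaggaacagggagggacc
Fgb, chr3:83049864-83050063, minus strand: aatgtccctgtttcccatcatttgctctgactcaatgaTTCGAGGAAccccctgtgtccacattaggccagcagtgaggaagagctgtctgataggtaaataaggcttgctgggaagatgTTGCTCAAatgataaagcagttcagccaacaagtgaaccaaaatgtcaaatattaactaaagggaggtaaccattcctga
Fgg, chr3:83007524-83007723, plus strand: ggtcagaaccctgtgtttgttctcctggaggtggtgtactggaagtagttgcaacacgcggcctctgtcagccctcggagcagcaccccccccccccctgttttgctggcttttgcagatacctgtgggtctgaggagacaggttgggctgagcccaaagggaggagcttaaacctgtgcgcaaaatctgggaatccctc

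The C3 window held a C/EBP match, the Fgb window a C/EBP and a STAT match, and the Fgg window none of the 3, with no base shared by a pair of matches; none of these windows held the NF-kB consensus. The window of Lcn2, another called injury gene, was searched as well, is not printed and held none of the 3. Of 32851 promoters in the RefSeq table, 7.47% held the C/EBP letters, 6.07% the NF-kB consensus and 5.49% the STAT letters in the same window. A match is a stretch of letters only, and nothing about factor binding was measured in these cells.

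The injury genes differed in how many S1-S2 cells they came from: C3, Dcdc2a and Lcn2 were found in few cells, Fgg in more and Spp1 in most. At least 1 C3 UMI was found in 1.58% and 1.82% of S1-S2 cells with BPTES and in 7.74% and 7.74% with DMSO. In thick ascending limb cells of the same libraries the share was 1.02% and 0.763% against 1.58% and 5.53%. The median depth of those cells was 4330, 4320, 4214 and 8007 UMIs. In leukocytes a C3 UMI was found in 10.2% and 10.3% with BPTES and in 12.2% and 14.4% with DMSO. The 1% of S1-S2 cells with most C3 held 90.2% and 88.8% of all C3 UMIs with BPTES and 66.4% and 67.6% with DMSO. In both groups most C3 UMIs came from a small fraction of the cells. Spp1, which encodes the secreted protein osteopontin, was found in 90.7% and 90.6% of S1-S2 cells against 91.6% and 95.5%, in 86.2%, 87.8%, 92.6% and 94.0% of thick ascending limb cells, which also make it, and in 16.0% to 40.3% of leukocytes. It was at 767 and 864 CPM against 991 and 1495 (-0.61 ± 0.20, adjusted p = 0.160).

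Fgg was spread more widely, with UMIs in 38.0% and 36.7% of S1-S2 cells against 45.4% and 41.7%, and in at most 4.15% of thick ascending limb cells, and the top 1% of S1-S2 cells held 19.0% and 17.4% of its UMIs against 29.0% and 27.6%. Slc16a10 was found in 64.4% and 64.4% of cells with BPTES and in 55.6% and 62.6% with DMSO, and the top 1% held 14.5%, 18.5%, 11.8% and 14.1% of its UMIs. In thick ascending limb cells its share ran from 14.3% to 22.6% and in leukocytes, at a median of 11094 and 11120 UMIs with BPTES, from 28.9% to 32.3%. Slc7a8 was found in 81.5% and 82.3% against 75.8% and 77.1%, and in thick ascending limb cells in 16.0% to 23.96%.

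**Figure D3:**
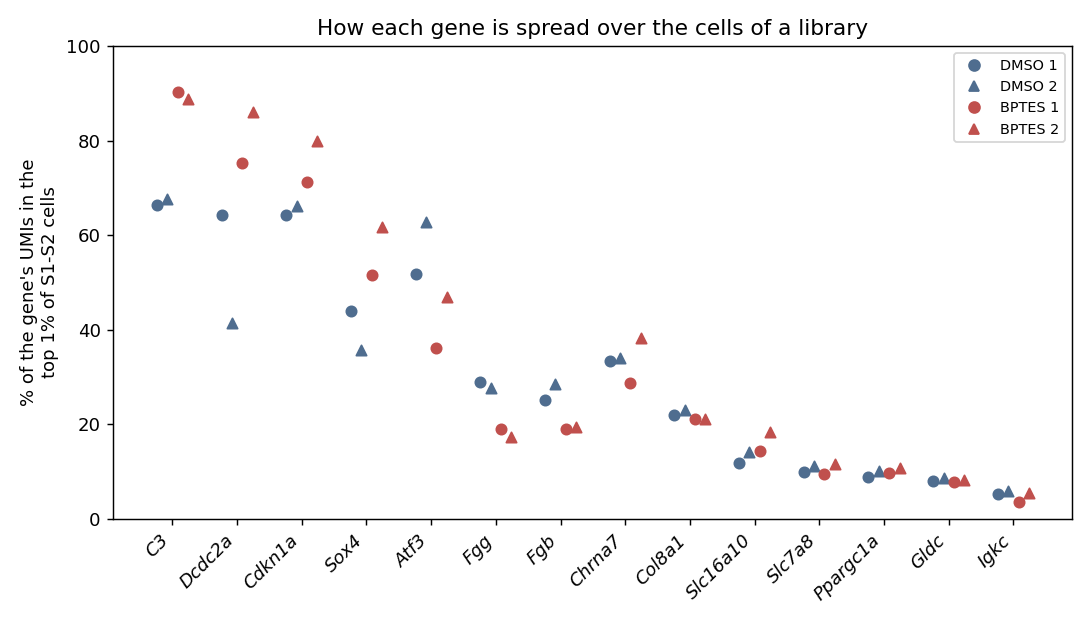
Share of a gene's UMIs that sits in the 1% of S1-S2 cells with most of it (vertical axis, percent), with 1 point for each library and gene. C3 lies between 66.4% and 90.2% and Cdkn1a between 64.3% and 80.0%, while Slc16a10, Slc7a8, Ppargc1a, Gldc and Igkc lie under 20% in each library. Fgg and Fgb lie under 20% in the BPTES libraries and above it in the DMSO libraries.

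Most immediate early, interferon and NF-kB genes had a fold change below 0, whereas 11 of 14 heat shock genes lay above 0 (median 0.30, none called). Of 21 immediate early genes tested, which rise within minutes of stress and also during tissue digestion, 8 were called as falls, against 0.559% of all tested genes, 20 had a fold change below 0 and the median was -0.83. Before adjustment 17 had a p under 0.05 (81.0% against 23.6% of all tested genes). The 8 were Fosl2, Junb, Ier5, Atf3, Zfp36, Btg2, Cebpb and Cebpd. Junb, a subunit of the factor AP-1, was at 8.17 and 9.48 CPM with BPTES and at 14.8 and 16.5 CPM with DMSO (log2 fold change -0.83 ± 0.11, adjusted p = 0.0250). Zfp36, which destabilises cytokine messengers, was at 11.4 and 14.1 CPM against 21.6 and 24.7 (-0.86 ± 0.12, adjusted p = 0.0319). Atf3, a stress-induced repressor, was at 1.51 and 1.54 CPM against 3.48 and 4.74 (-1.42 ± 0.20, adjusted p = 0.0282). A single S1-S2 cell held 72 of 251 Atf3 UMIs in DMSO replicate 1 and 89 of 271 in DMSO replicate 2. The largest count in a cell was 4 of 119 UMIs in BPTES replicate 1 and 11 of 111 in BPTES replicate 2. The part of single cells in the Atf3 fall was not tested. Without BPTES replicate 2 none of the list was called, and without BPTES replicate 1 there were 5 calls, of which Btg2 and Ier5 were among the 8. DESeq2 called 17 falls, against 3.22% of all genes it gave an adjusted p. Without the injury limit none of the 8 was called, although the fold changes of the 4 named ones were larger: Junb measured -1.25 (adjusted p = 0.123), Atf3 -2.12 (0.155), Btg2 -1.76 against -1.14 with the limit (0.123) and Zfp36 -1.03 (0.0988). The part of digestion in these values was not tested.

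Of 27 p53 target and senescence genes tested, Cdkn1a and Btg2 were called, both as falls (0.559% of all tested genes fell), and the median was -0.36. Before adjustment 1 rise and 11 falls had a p under 0.05 (44.4% against 23.6% of all tested genes). DESeq2 called 9 falls and 1 rise, against 3.22% and 5.47% of all genes it gave an adjusted p. Cdkn1a, which encodes the cell-cycle inhibitor p21, was at 5.65 and 5.49 CPM with BPTES and at 11.2 and 9.595 CPM with DMSO (-0.90 ± 0.12, adjusted p = 0.0221), and was not called without BPTES replicate 1 (0.0549) or without BPTES replicate 2 (0.172). A Cdkn1a UMI was found in 3.67% and 2.63% of S1-S2 cells with BPTES and in 5.92% and 5.92% with DMSO. In leukocytes the share was 21.6% and 22.2% against 28.1% and 27.8%. The top 1% of S1-S2 cells held between 64.3% and 80.0% of its UMIs. Cdkn2a, which encodes p16, was counted with 1 and 1 UMIs against 4 and 1 and was too low to test. Mdm2, another p53 target, stood at 36.7 and 40.8 CPM against 37.0 and 38.6.

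Of 30 interferon-response genes tested, all 30 had a fold change below 0, with a median of -0.76, and Ifit1 alone was called, at 0.991 and 0.890 CPM against 3.92 and 2.73 (-1.82 ± 0.23, adjusted p = 0.0212). Over all tested genes, edgeR called 0.559% as falls. Without adjustment 21 of the 30 had a p under 0.05 (70% against 23.6% of all tested genes). DESeq2 called 11, all falls, against 3.22% of all genes it gave an adjusted p. Ifit1 was not called without BPTES replicate 1 (0.0546), without BPTES replicate 2 (0.178) or without the injury limit (-1.80, 0.0550). Of 19 NF-kB genes tested, 18 had a fold change below 0 and Cd74 was called, against 0.559% of all tested genes called as falls. Before adjustment 10 of the 19 had an edgeR p under 0.05, all lower with BPTES (52.6% against 23.6% of all tested genes). The median level of the interferon genes in S1-S2 cells was 5.29% of that in leukocytes, and the median for the immediate early genes was 2.86%. How much of these counts is RNA of leukocytes was not tested.

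**Figure D4:**
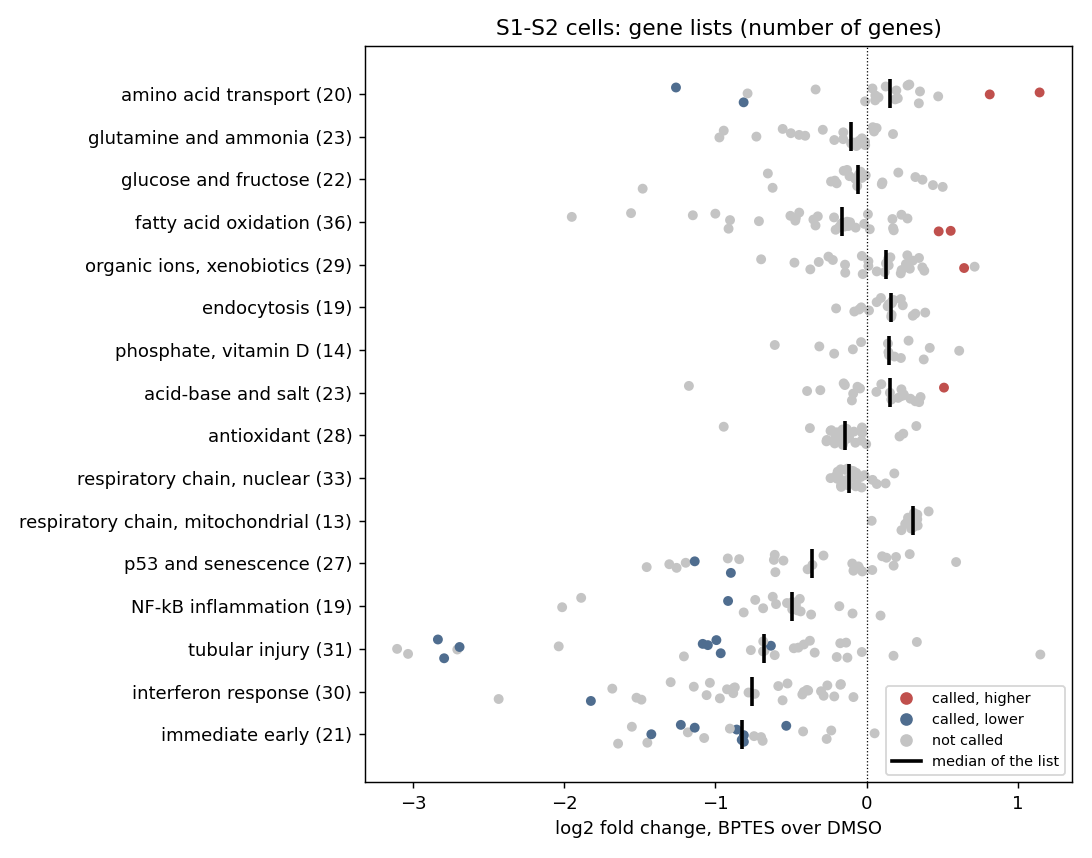
Log2 fold change of BPTES over DMSO in S1-S2 cells (horizontal axis) for the genes of 16 lists, 1 point a gene, with the list's median as a black bar and the genes of the rule left out. The points of the injury, interferon and immediate early lists lie mostly below 0, while the lists of amino acid, acid-base and organic ion transport have points on both sides of 0 and medians of 0.16, 0.15 and 0.13.

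The other tubular lists held few or no calls. edgeR called none of 19 endocytosis genes, 15 of them had a fold change above 0 and the median was 0.16. Unadjusted, 5 passed 0.05 (26.3%, against 23.6% of all tested genes). DESeq2 called 2, against 8.69% of all genes it gave an adjusted p. edgeR called none of 14 phosphate and vitamin D genes, against 7 (50%) that passed 0.05 unadjusted and 4 by DESeq2. Kl, the coreceptor of FGF23, was at 485 and 556 CPM with BPTES and at 293 and 388 CPM with DMSO (0.61 ± 0.14, adjusted p = 0.0884), with groups that did not overlap. Among 22 glucose and fructose genes edgeR also called none, against 8 (36.4%) at an unadjusted p under 0.05 and 6 by DESeq2. Slc2a2 was at 404 and 463 CPM against 290 and 322 (0.50 ± 0.10, adjusted p = 0.0571), and Slc5a1, the glucose carrier SGLT1 of later segments, at 1.04 and 1.01 CPM against 2.13 and 3.64 (-1.48 ± 0.28, adjusted p = 0.0550). Kl, Slc2a2 and Slc5a1 were called when DMSO replicate 2 was left out (adjusted p = 0.000424, 0.0103 and 0.0193). Slc5a1 was also called without DMSO replicate 1 (1.52e-06), and with predicted doublets removed Slc5a1 (0.0353) and Slc2a2 (0.0460) were called. At the 25% mitochondrial limit Slc2a2 was called (0.0498).

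Organic ion carriers and xenobiotic enzymes held 1 call among 29, Slc22a28, and acid-base and salt genes 1 among 23, Agtr1a. Without BPTES replicate 2 neither Slc22a28 (log2 fold change 0.62) nor Agtr1a (0.47) was called. Without adjustment 10 and 11 genes of these lists had a p under 0.05 (34.5% and 47.8% against 23.6% of all tested genes). DESeq2 called 5 rises and 2 falls in the first list and 3 rises and 2 falls in the second. Over all genes it gave an adjusted p, its rises were 5.47% and its falls 3.22%. Over all tested genes, edgeR called 0.43% as rises. None was called among 28 antioxidant, 22 clock, 14 heat shock, 23 cholesterol, 27 citrate cycle and NAD, 21 matrix and 21 transcription factor genes. Before adjustment 5, 7, 3, 3, 4, 6 and 8 of these had a p under 0.05 by edgeR (17.9%, 31.8%, 21.4%, 13.0%, 14.8%, 28.6% and 38.1%, against 23.6% of all tested genes), and DESeq2 called 2, 4, 0, 3, 1, 2 and 2. Usp2, a clock-controlled gene, was at 60.1 and 74.7 CPM against 35.5 and 47.0 (0.71 ± 0.17, edgeR adjusted p = 0.101). Per1 was at 4.38 and 5.95 CPM against 2.84 and 3.06 (0.81 ± 0.18, adjusted p = 0.0695). DESeq2 called both as rises. With a single library left out, the fold changes ran from 0.52 to 0.92 for Usp2 and from 0.57 to 1.03 for Per1. Col8a1, a collagen chain, was at 98.6 and 99.1 CPM against 36.4 and 53.5 (1.14 ± 0.18, adjusted p = 0.0647). Col8a1 was called at the 25% mitochondrial limit (0.0398), after thinning, with middle and high organic anion carrier level (0.00111 and 0.0233) and without either DMSO library (1.45e-06 and 1.39e-08).

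Respiratory-chain transcripts are encoded by 2 genomes. The rule limits the mitochondrially encoded ones, whose values are therefore given as a description only. All 13 mitochondrially encoded genes had a fold change above 0, with a median of 0.31, and of 33 nuclear-encoded ones 29 lay below 0, with a median of -0.12. edgeR called 0 of the 33 nuclear-encoded genes, with 2 that passed 0.05 unadjusted, and DESeq2 called 0. The mitochondrial genes together made up 173396 and 195923 CPM with BPTES and 135122 and 163706 CPM with DMSO, in the order of the mitochondrial shares per cell given above. With these genes left out before scaling, 157 genes were called, 149 of them shared.

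Transcripts of other cell types were counted in S1-S2 cells, and some of them moved with treatment. Igkc, the kappa light chain made by B and plasma cells, was at 255 and 360 CPM with BPTES and at 56.9 and 61.2 CPM with DMSO (log2 fold change 2.38 ± 0.17, adjusted p = 0.0129), the largest called rise of the named genes. It was found in 98.9% and 99.3% of S1-S2 cells against 68.5% and 69.2%, and in 94.9% and 96.2% against 53.7% and 59.0% of the shallower thick ascending limb cells. Before scaling, its level was 20804 and 25747 CPM against 3729 and 1470 in leukocytes, and 441 and 570 CPM against 101 and 82.2 in thick ascending limb cells. Leukocytes were chosen by a Ptprc UMI, so barcodes with Igkc but without Ptprc lay outside that pool. Over all kept barcodes Igkc was at 18044 and 27872 CPM against 2619 and 3342, and in endothelial cells at 372 and 10122 CPM against 90.8 and 81.5. Igkc in S1-S2 cells stood at 1.38% of the leukocyte level, and its call was kept under each of the 18 other settings. Of 9 B and plasma cell genes tested, 8 had a fold change above 0. Their summed level ran from 423 to 597 CPM with BPTES and from 88.6 to 102 CPM with DMSO.

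Some macrophage transcripts fell. Of 10 such markers 3 were called, the complement genes C1qa, C1qb and C1qc, against 0.559% of all tested genes called as falls. A fold change below 0 was found for 9, and the median was -0.82. Before adjustment 9 falls had an edgeR p under 0.05 (90% against 23.6% of all tested genes). Their summed level was 34.4 and 32.2 CPM against 51.7 and 58.3. C1qa was at 3.68 and 3.13 CPM against 7.55 and 8.65 (-1.25 ± 0.14, adjusted p = 0.0164) in S1-S2 cells, and at 955 and 823 CPM against 1516 and 1597 before scaling in leukocytes. The antigen presentation genes Cd74 (36.1 and 39.2 CPM against 71.0 and 71.2, -0.92 ± 0.08) and H2-Ab1 (28.3 and 25.8 CPM against 47.3 and 51.6, -0.87 ± 0.08) stood at 0.533% and 0.828% of their leukocyte level. Cd74 was still called without BPTES replicate 2 (log2 fold change -0.97). C1qa (-1.13), C1qb (-0.74), C1qc (-0.99) and H2-Ab1 (-0.81) were not. Without the injury limit C1qb measured -0.85 and C1qc -1.06, and neither was called (adjusted p = 0.0706 and 0.0668).

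Distal markers went both ways. Aqp2, the water channel of the collecting duct, was at 1.09 and 2.00 CPM with BPTES and 6.24 and 7.16 CPM with DMSO (-2.12 ± 0.27, adjusted p = 0.0314), and Slc12a3, the sodium chloride carrier of the distal convoluted tubule, at 7.72 and 6.34 CPM against 3.53 and 3.87 (0.93 ± 0.14, adjusted p = 0.0366). Both changed sign among cells with a middle organic anion carrier level and were not called once predicted doublets were removed. Slc12a3 was also not called without BPTES replicate 1 (0.0741) or without BPTES replicate 2 (0.117). Without the injury limit Aqp2 measured -2.03 and Slc12a3 1.00, and neither was called (0.0649 and 0.0586). The 6 thick ascending limb markers summed to 34.4 and 44.5 CPM against 75.6 and 81.0, all with a fold change below 0. None was called by edgeR, and 2 had an unadjusted edgeR p under 0.05, against 23.6% of all tested genes. DESeq2 called 1, against 8.69% of all genes it gave an adjusted p. Markers of endothelium summed to at most 10.1 CPM, of stroma and podocytes to at most 8.46 and of T and NK cells to at most 5.11. The part of RNA from other cells in the changes of S1-S2 cells was not tested.

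The treatment differences of S1-S2 cells were then compared with those of S3 cells of the same libraries by a test of the difference itself, with the library as a block. It called 1878 of 14997 genes (12.5%), against 122 of 12783 genes (0.954%) called for treatment within S3. Of the 48 named genes called in S1-S2 cells, 45 had a value in S3, and for 26 of these the difference was called. These genes were chosen because they were called in S1-S2 cells, whose values the difference uses again, so the 26 are not set against the 12.5%. Slc16a10 was at 18.1 and 17.2 CPM with BPTES and 23.2 and 25.2 CPM with DMSO in S3, so that its log2 fold change was 1.57 ± 0.14 higher in S1-S2 (adjusted p = 0.000737). Slc7a8 was at 17.9 and 20.6 CPM against 22.4 and 21.5 in S3, a difference of 1.00 ± 0.10 (adjusted p = 0.000737). In S1-S2 cells both genes stood well above S3, by 10.3-fold and 14.8-fold over the 4 libraries.

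Ppargc1a was at 42.9 and 42.1 CPM with BPTES and 42.9 and 48.0 CPM with DMSO in S3, a difference of 0.63 ± 0.10 (adjusted p = 0.00491), and Ppara at 92.2 and 97.5 CPM against 112 and 112, a difference of 0.70 ± 0.08 (adjusted p = 0.00166). C3 was at 3.48 and 12.04 CPM against 8.96 and 9.84 in S3, where the groups overlapped, and its fall was larger in S1-S2 by 2.37 on the log2 scale (adjusted p = 0.0214). For Fgg, which was at 9.51 and 9.28 CPM against 22.5 and 14.3 in S3, a difference was not called (-0.13 ± 0.19, adjusted p = 0.728), nor for Igkc (-0.05 ± 0.09, adjusted p = 0.790) or Cd74 (-0.15 ± 0.10, adjusted p = 0.377). Slc6a18, Slc1a4, Cpe and Adh1, each with a higher level in S3 than in S1-S2 cells, had called differences from -1.03 to -0.59.

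The number of calls depended most on BPTES replicate 1. Without it 14 genes were called over the whole table, while 3633 had a p under 0.05 before adjustment, against 4100 with all libraries. Of the 26 named ones 3 were called, Slc16a10 (difference 1.77, adjusted p = 0.0449), P3h2 and C3 (-2.96, 0.0449). Slc7a8 (0.96), Ppara (0.76) and Dcdc2a (-2.02) were not called, each at an adjusted p of 0.0516. Without BPTES replicate 2, DMSO replicate 1 or DMSO replicate 2, 21, 21 and 18 of the 26 were called, out of 676, 589 and 280 genes in all. Slc16a10 was called each time. C3 was not called without DMSO replicate 1 (adjusted p = 0.0748) or DMSO replicate 2 (0.233). Against thick ascending limb cells (734 cells), the difference was called for 43 of 15869 genes (0.271%), among the named ones P3h2 and Cpe.

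**Figure D5:**
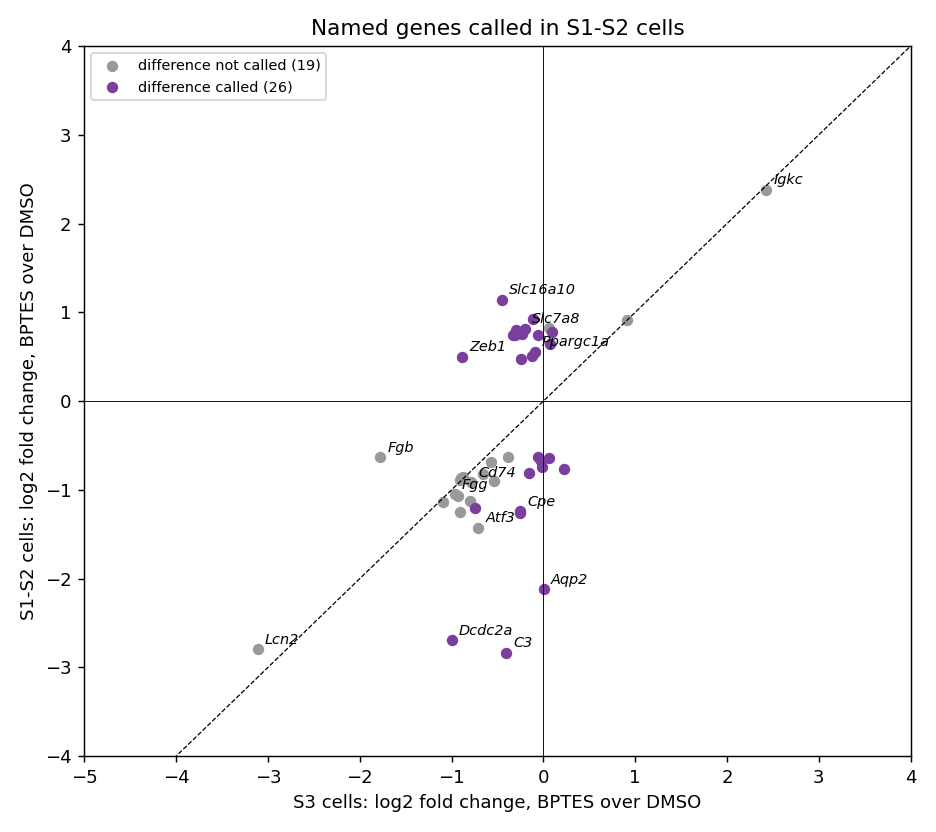
Log2 fold change of BPTES over DMSO in S1-S2 cells (vertical axis) against that in S3 cells (horizontal axis) for the 45 named genes called in S1-S2 cells that also had an S3 value, 1 point a gene, with equal change on the dashed line. Slc16a10, Slc7a8, Zeb1, C3 and Dcdc2a lie off that line, and Igkc and Cd74 lie on or near it.

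S1-S2 cells were finally split into 3 ranges of about equal cell number, low, middle and high, by the UMIs of the organic anion carriers Slc22a6 and Slc22a8 per UMI of the cell, a split added after the data were seen. It is a range and not a set of types: of the 12850 cells, 791 lay within 10% of the lower border and 1137 within 10% of the upper. Among DMSO cells 35.8% and 36.5% were in the low range, and among BPTES cells 32.1% and 30.3%. Slc16a10 was called in each range, with log2 fold changes of 1.47, 1.08 and 0.72 from low to high (adjusted p = 0.0471, 0.000792 and 0.0217). Fgg was also called in each range, at -1.22, -1.35 and -0.68. Slc7a8 measured 1.08, 0.72 and 0.58 and was called in the middle range (adjusted p = 0.00479). C3 measured -2.53, -4.18 and -1.98 and was called in the low range (adjusted p = 6.5e-06). The difference between ranges was not tested.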

How the data were processed

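For each gene and barcode the authors deposited raw UMI counts from 10x GEM-X libraries; per the file headers Cell Ranger 8.0.1 made them, and per the submitters' processing notes the build was mm10. The annotation and the treatment of intronic reads are not given in the sources used here. Of 31054 features, an added tdTomato sequence had 0 UMIs in S1-S2 cells. The members, the 35 gene lists (655 entries) and the rule for named genes were chosen with earlier results of these data known.

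Raw counts were summed over the S1-S2 cells of each library and tested with edgeR 4.0.16 in R 4.3.3 (glmQLFit and glmQLFTest, robust, TMM scaling, filterByExpr), with Benjamini-Hochberg adjustment over all tested genes and a threshold of 0.05. CPM values are TMM-scaled unless said otherwise, fold changes (log2) set BPTES over DMSO, and an SE is the fold change over the square root of F. Levels set across cell pools are summed counts per 1e6 without scaling. Differences between segments were tested as an interaction of segment and treatment with the library as a block. Named genes were the 12 largest called rises and falls among genes whose groups were apart and whose mean log2 CPM reached 3, leaving out genes over 10 times higher in another pool, the 3 largest of those each way, the 4 lowest p-values of each list, and 13 genes always given; some genes of these lists and rules are not reported here. Gene spans came from RefSeq on GRCm38.p6 and matched by symbol for 92.0% of tested genes, 92.5% of called rises and 96.6% of called falls.

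Doublets were not removed in the main analysis. Scrublet (scanpy 1.11.5) removed 113, 137, 96 and 93 members in an alternative at an expected rate that grows with the number of barcodes, since its own threshold marked 175, 112, 146 and 0 barcodes. Other alternatives were RLE scaling, DESeq2 1.42.0, no low-count filter, a replicate block, a 25% mitochondrial limit, fits without single libraries, at least 10 UMIs of Slc5a2 and Slc5a12, no limit on Vcam1 and Havcr1, and thinning to 2000 UMIs. Added after seeing the data were leaving out mitochondrial genes, 0 UMIs of Vcam1 and Havcr1, and 3 ranges of organic anion carrier level. The test was tried on simulated counts with known changes. With 2 libraries a group, small differences are not detectable, and a p above the threshold does not show equality. Reads of genes that overlap or share sequence may have been split by the counting, which bears on Igkc, H2-Ab1, C1q genes and mitochondrial genes.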

Additional observations from a re-analysis of the deposited data

Results flagged for a closer look

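The following named genes, all called in S1-S2 cells, had a treatment effect that differed between S1-S2 cells and another segment by a test of the difference itself (edgeR interaction term, adjusted p under 0.05). Values are the log2 fold change of BPTES over DMSO in S1-S2 cells minus that in the other segment. These genes were chosen by their calls in S1-S2 cells, whose values the difference uses again. Their number is therefore not set against the share of all tested genes that passed. Against S3 cells, where 12.5% of all tested genes passed, the effect was higher in S1-S2 for the carriers Slc16a10 (1.57), Slc7a8 (1.00) and Slc22a28 (0.56), the regulators Ppargc1a (0.63), Ppara (0.70) and Zeb1 (1.34), and the receptors Adra1a (1.02), Agtr1a (0.61) and Unc5c (0.96). The same held for P3h2 (1.07), Gldc (1.05), Galnt14 (0.80), Sgk2 (0.67) and Slc12a3 (1.02).

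The effect was lower in S1-S2 than in S3 for C3 (-2.37), Aqp2 (-2.30), Dcdc2a (-1.68), Slc1a4 (-1.03), Gm27216 (-1.01), Cpe (-0.99), S100a10 (-0.74), A4galt (-0.70), 2200002D01Rik (-0.68), Slc6a18 (-0.66), Adh1 (-0.59) and Nrp1 (-0.47). Against thick ascending limb cells, where 0.271% of tested genes passed, P3h2 (0.97) was higher and Cpe (-2.21) lower in S1-S2. The S1-S2 calls of Slc12a3 and Aqp2 were lost once predicted doublets were removed.

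Of the 26 differences from S3, 3 were called without BPTES replicate 1 (Slc16a10, P3h2 and C3), 21 with BPTES replicate 2 left out, 21 with DMSO replicate 1 left out and 18 with DMSO replicate 2 left out. Against thick ascending limb cells, 0, 1, 2 and 2 of the 2 were. Without BPTES replicate 1 the differences of Slc7a8, Ppara and Dcdc2a were 0.96, 0.76 and -2.02, each at an adjusted p of 0.0516.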

How the results depend on the processing

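The 154 calls between BPTES and DMSO became 2145 without the low-count filter, 1065 with DESeq2, 363 at a 25% mitochondrial limit, 320 without predicted doublets, 96 after thinning and 67 without the limit on Vcam1 and Havcr1. In the low, middle and high range of organic anion carrier level they were 63, 292 and 100. Leaving out a library gave 14 to 1042, and the cause was not tested. The count was within 1.5 times under RLE scaling (116), at least 10 UMIs of Slc5a2 and Slc5a12 (159), mitochondrial genes left out (157) and 0 UMIs of Vcam1 and Havcr1 (141). Rises made up 43.5% of calls, against 62.6% without the filter, 62.9% with DESeq2 and 38.8% with RLE scaling. They made up 30.0% without DMSO replicate 1, 58.8% without DMSO replicate 2, 62.0% without BPTES replicate 1, 54.5% at the 25% limit, and 31.7%, 56.5% and 19% in the low, middle and high range. With the replicate number as a replicate block there were 3150 calls; the deviations of same-numbered libraries correlated at r = 0.199 over 15574 genes, and with 2 pairs whose labels state no link the numbers were not taken as pairs.

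Leaving out a library gave 14 to 676 differences from S3 (1878 with all) and 77 to 326 from thick ascending limb (43 with all). The difference in the share of kept barcodes (7.52 points) was 4.05 at the 25% limit and 3.79 after thinning, and that among barcodes without Ptprc (12.9 points) was 5.70 after thinning. Of the 48 named calls, 2 (Fgg and Igkc) were kept under every setting listed here, and 42 were lost without BPTES replicate 2, 13 without BPTES replicate 1, 19 without the limit on Vcam1 and Havcr1, 20 after thinning, and 28, 11 and 24 in the low, middle and high range, with sign changes not counted. The signs that turned were those of S100g in the middle and high range (-0.12 and -0.23), Aqp2 in the middle range (1.94) and Slc12a3 in the middle and high range (-1.58 and -0.45). Depth limits genes with few UMIs, such as Lcn2, Gls2 and Cdkn2a.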

Other observations

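Of the 87 called falls, 41 (47.1%) had a higher level in S1-S2 than in S3 cells, against 62.7% of all tested genes. Adh1, an alcohol dehydrogenase at 537 CPM in S3 and 124 CPM in S1-S2 cells, was at 106 and 86.2 CPM with BPTES and 147 and 151 CPM with DMSO in S1-S2 cells (log2 fold change -0.63 ± 0.11, adjusted p = 0.0458). Cpe, a carboxypeptidase that trims peptide hormones, was at 49.4 CPM in S3 and 13.8 CPM in S1-S2 cells, and measured 9.07 and 7.10 CPM against 17.5 and 20.9 in the latter (-1.24 ± 0.14, adjusted p = 0.0206). S100a10, a partner of annexin A2, was at 205 CPM in S3 and 58.4 CPM in S1-S2 cells, and measured 43.5 and 43.3 CPM against 76.0 and 68.5 (-0.74 ± 0.08, adjusted p = 0.0140).

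Without BPTES replicate 2 none of these 3 was called (adjusted p = 0.182, 0.0845 and 0.0982), and without the injury limit Adh1 was not (-0.59, 0.0794). Slc7a13 itself, which the rule uses, was at 21.0 and 20.3 CPM against 19.95 and 19.4, given as a description only. A UMI of it was found in 9.94% and 6.89% of S1-S2 cells with BPTES and in 10.8% and 10.2% with DMSO.

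Chrna7, a nicotinic acetylcholine receptor subunit, was found in 13.8% and 11.4% of S1-S2 cells with BPTES and in 9.61% and 10.3% with DMSO, and in at most 2.11% of the shallower thick ascending limb cells. Its level was 20.04 and 19.5 CPM against 9.16 and 11.1. Nrp1, a coreceptor of semaphorins and VEGF that was over 10 times higher in another pool, was at 11.6 and 9.50 CPM against 22.9 and 26.1 in S1-S2 cells (-1.21 ± 0.12, adjusted p = 0.0129) and lost its call without BPTES replicate 2 (0.0669).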
